A study of Mus musculus with 2 samples.

Results

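The cell barcodes described here are those in which transcripts of the mitochondrial genome made up 20% or more of all unique molecular identifiers (UMIs, 1 per captured RNA molecule) in single-cell RNA-seq of CT26 tumors. They were chosen by this measured share alone from all deposited barcodes, and are 393 of 7556 barcodes in the untreated (UT) library and 445 of 7221 in the BUP-Gel library, 838 of 14777 together. The remaining barcodes, under 20%, passed the quality filter and number 7163 and 6776, and they are called kept barcodes below. The tumors were grown under the skin of male BALB/c mice from CT26, a colon carcinoma line of the mouse, and the animals were left untreated or received BUP-Gel, a hydrogel carrying the local anesthetic bupivacaine. Live CD45+ (immune) and CD45- cells were sorted, mixed in a ratio that the labels give as 4 to 1 and the study's methods give differently, and loaded for 10x 5' v2 libraries as a pool of 3 tumors per condition. Each condition therefore has 1 library and no replicate. No test between conditions or between groups of barcodes was possible, and the 95% intervals given are exact and cover counting error only.

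Mitochondrial transcripts lie inside the organelle, behind membranes of their own, whereas most messenger RNA is free in the cytosol or bound to the endoplasmic reticulum. A barcode that holds little cytosolic RNA can for that reason have a high mitochondrial share, and the share is used as a quality filter, usually to remove dying or broken cells. Some RNAs, such as Malat1 and Neat1, stay in the nucleus, and unspliced transcripts of long genes are found there too, so the make-up of the nuclear-encoded RNA describes which compartments a barcode still represents. Because the mitochondrial share and the total UMI count chose the barcodes, both are given below as description only. All other values are shares or counts per 1000000 nuclear-genome UMIs (CPM), in which mitochondrial UMIs do not enter.

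The share of barcodes at 20% or more was 5.20% (4.71 to 5.73) in the UT library and 6.16% (5.62 to 6.74) in the BUP-Gel library, 0.961 percentage points higher in BUP-Gel (0.206 to 1.72). The nearest kept barcodes had 19.7% in UT and 19.8% in BUP-Gel, and the nearest removed ones 20.03% and 20.04%. Barcodes of 20 to under 50% were about as frequent in both libraries, with 164 in UT (2.17% of all) and 159 in BUP-Gel (2.20%), a difference of 0.0315 points (-0.450 to 0.515). Barcodes of 50% or more were more frequent in BUP-Gel, with 229 (3.03%) against 286 (3.96%), a difference of 0.930 points (0.329 to 1.54). Within that range, 50 to under 80% held 177 UT and 144 BUP-Gel barcodes, and the excess lay at 80% or more. There UT had 52 barcodes (13.2% of its high-mitochondrial barcodes) and BUP-Gel 142 (31.9%), a difference of 18.7 points (12.96 to 24.2). Whether the excess belongs to the treatment, to the 3 pooled tumors or to the preparation cannot be told apart with 1 library each.

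**Figure D1:**
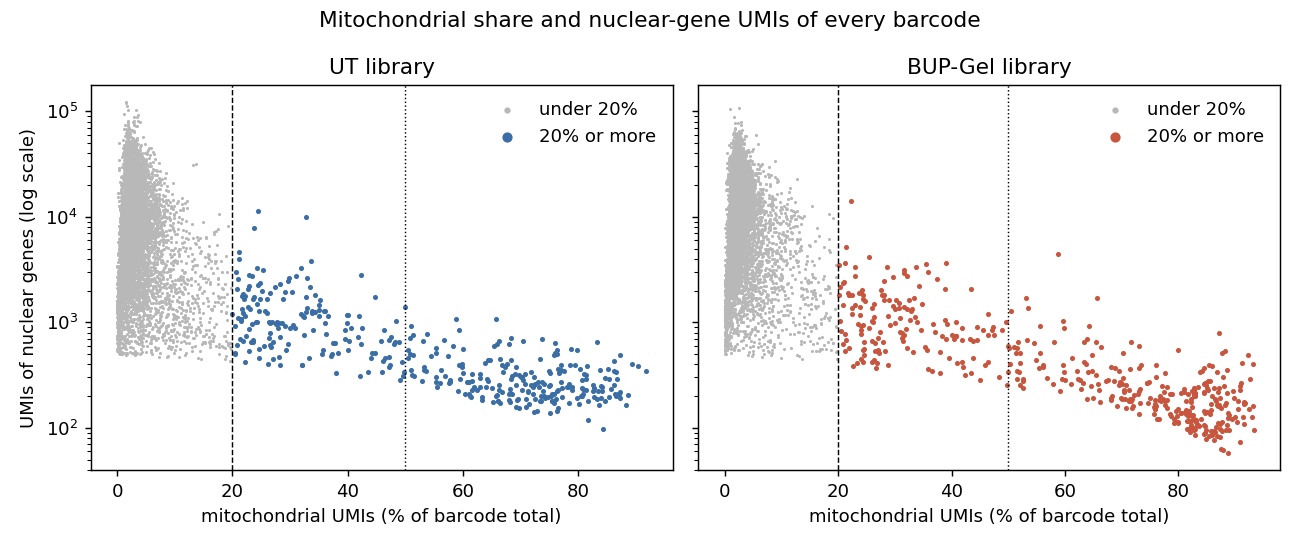
Mitochondrial share (x axis, % of all UMIs) against nuclear-genome UMIs (y axis, log scale) of every barcode in the UT library (left) and the BUP-Gel library (right), with dashed and dotted lines at 20% and 50%. Nuclear-genome UMIs are fewer at higher mitochondrial shares, with medians of 986.5 (UT) and 931 (BUP-Gel) at 20 to under 50% and of 264 and 200.5 at 50% or more.

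The high-mitochondrial barcodes were shallow in nuclear RNA but not poor in mitochondrial RNA, which follows in part from how they were chosen. Their median was 399 nuclear-genome UMIs in UT and 303 in BUP-Gel, against 8198 and 10116 in the kept barcodes. Their median number of mitochondrial UMIs was 586 and 591, above the 214 and 261 of the kept barcodes. They held 10.6% and 12.8% of each library's mitochondrial UMIs, and 0.365% and 0.330% of its nuclear-genome UMIs. All 13 mitochondrial protein genes had a UMI in 198 of 393 UT and 243 of 445 BUP-Gel barcodes. The share of mt-Co1, a catalytic subunit of cytochrome c oxidase, was 20.3% and 18.5% at 20 to under 50%, 18.5% and 17.9% at 50% or more and 20.9% and 20.2% in kept barcodes. That of mt-Atp6, a membrane subunit of ATP synthase, was 16.6% and 18.2%, then 17.3% and 19.1%, and 15.5% and 16.7% in kept barcodes. The share of mt-Atp8, another subunit of ATP synthase, was 1.62% and 1.14%, then 1.77% and 1.27%, and 1.43% and 0.967% in kept barcodes.

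Of the series as a whole, the UT library held 83228442 UMIs and the BUP-Gel library 89918925, with 3.37% and 3.19% of them mitochondrial. The smallest deposited barcode had over 500 UMIs, so that the mitochondrial share alone separates kept from removed barcodes. The libraries shared 76 barcode sequences, of which 3 were high-mitochondrial in UT, 5 in BUP-Gel and none in both. No doublets were removed, and 8 UT and 5 BUP-Gel high-mitochondrial barcodes were among the 6% of each library with the highest Scrublet doublet scores.

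The lineage of the barcodes was first read from marker UMIs. Macrophage and monocyte markers (14 genes, among them C1qa, C1qb and C1qc of the complement C1q complex, Lyz2 for lysozyme and Csf1r for the colony-stimulating factor 1 receptor) were the most frequent. A barcode was placed in a marker class when it had at least 3 UMIs of at least 2 markers of the class, at a clear lead over other classes. By this rule 214 UT barcodes (54.5%) and 98 BUP-Gel barcodes (22.0%) were macrophage and monocyte, a difference of -32.4 points (-38.7 to -25.9). No class could be given to 143 (36.4%) and 312 (70.1%). Neutrophil markers placed 14 and 9 barcodes, T and NK cell markers 7 and 4, tumor cell markers 1 and 8 and fibroblast markers 1 and 9. Mast cell markers placed 2 and 0, erythroid markers 1 and 2, dendritic cell markers 1 and 1, B cell markers 1 and 0 and endothelial markers none, and 8 and 2 barcodes were mixed.

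The marker rule does not see all lineages equally at this depth. When kept UT barcodes of known class were thinned to 150 nuclear-genome UMIs, the rule still placed 93.8% of neutrophils and 64.6% of macrophages, but 24.8% of T and NK cells, 6.25% of fibroblasts and 0.2% of tumor cells. In BUP-Gel the same shares were 95.6%, 61.8%, 22.4%, 24.6% and 0%. Few T cell or tumor cell calls among the shallowest barcodes were therefore not a measure of few such cells.

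Marker UMIs are also found in barcodes of other lineages. At least 1 macrophage marker UMI was present in 94.1% of UT and 72.8% of BUP-Gel high-mitochondrial barcodes, but also in 96.0% and 83.7% of kept T and NK cell barcodes, which were deeper. The level separates them better. Macrophage markers stood at 9618 CPM (UT) and 5714 CPM (BUP-Gel) at 20 to under 50%, and at 11000 CPM (10255 to 11784) and 5451 CPM (4948 to 5991) at 50% or more. Kept T and NK cell barcodes had 1549 and 1419 CPM, kept tumor cell barcodes 424 and 205 CPM, kept macrophage barcodes 36172 and 31457 CPM, and all kept barcodes together 17337 and 8359 CPM. The high-mitochondrial barcodes thus lay between macrophages and the other lineages, nearest to the level of the whole library.

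Single macrophage markers were counted as UMIs and as barcodes with a UMI, and those given here are examples from the list. At 20 to under 50%, Lyz2 had 755 UMIs in 147 of 164 UT barcodes and 378 UMIs in 94 of 159 BUP-Gel barcodes. Apoe, which encodes the lipid carrier apolipoprotein E, had 314 UMIs in 97 and 227 UMIs in 57. C1qb had 152 UMIs in 79 and 55 UMIs in 29, and Csf1r 51 UMIs in 33 and 30 UMIs in 20. At 50% or more, Lyz2 was found in 165 of 229 UT and 124 of 286 BUP-Gel barcodes, with 381 and 187 UMIs, while Csf1r was down to 6 and 4 barcodes.

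Neutrophil RNA was concentrated in few barcodes. S100a9, which encodes a subunit of calprotectin, had 1047 UMIs in 31 UT barcodes and 1213 UMIs in 14 BUP-Gel barcodes at 20 to under 50%. Its partner S100a8 had 355 UMIs in 25 and 515 UMIs in 15. The neutrophil list as a whole reached 9364 CPM in the UT barcodes and 9926 CPM in the BUP-Gel barcodes of this range, against 2657 and 3155 CPM in kept barcodes. At 50% or more it stood at 638 CPM (469 to 849) and 3162 CPM (2782 to 3579). The BUP-Gel value rests largely on 1 barcode, which held 208 of the 250 marker UMIs, and without it the list stood at 543 CPM.

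T and NK cell markers were scarce. All 18 together stood at 527 CPM (448 to 617) in UT and 289 CPM (230 to 358) in BUP-Gel high-mitochondrial barcodes, against 1499 and 1537 CPM in kept barcodes. Cd3e, of the T cell receptor complex, had 9 UMIs at 20 to under 50% in UT and 2 UMIs at 50% or more in BUP-Gel, and was at 0 in the other range of each library. Cd4 was at 0 in all high-mitochondrial barcodes, and had 274 and 136 UMIs in kept ones. The high-mitochondrial barcodes held 293852 and 287502 nuclear-genome UMIs, against 80130782 and 86761178 in kept ones. At that depth a Cd4 count of 0 does not separate the groups.

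Tumor cell markers stood at 123 CPM (80.8 to 178) in UT and 585 CPM (486 to 699) in BUP-Gel at 20 to under 50%, against 339 and 434 CPM in kept barcodes. This level rested largely on a single gene in BUP-Gel, since Mir100hg, a long non-coding RNA, had 83 of the 122 marker UMIs there, in 38 barcodes. In UT it had 12 of 27 UMIs in 5 barcodes. The epithelial keratin gene Krt8 was at 0 in all high-mitochondrial barcodes, and it was low in kept barcodes as well, with 218 UMIs in UT and 45 in BUP-Gel.

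A second assignment used the rest of the nuclear transcriptome. Each barcode was given to the class whose summed profile in kept barcodes made its counts of non-marker genes most likely, with the profile of all kept barcodes of the library together as a further candidate. The pooled profile stands for RNA with no lineage of its own, such as a mixture of many cells. Thinned to 150 nuclear-genome UMIs, kept barcodes went back to their class in 92.8% (UT) and 94.2% (BUP-Gel) of macrophages, 94.8% and 94.4% of T and NK cells and 99.0% and 97.9% of neutrophils. Tumor cells went back in 62.4% and 96.0%, and to tumor cell or fibroblast together in 98.4% and 98.2%. The pooled profile took at most 4.6% of any of these 4 classes. Unlike the marker rule, this assignment could place each of the 4 lineages in kept barcodes thinned to low depth. Thinning changes depth only, and these kept barcodes also built the profiles. How well barcodes with another make-up of RNA are placed was therefore not tested.

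**Figure D2:**
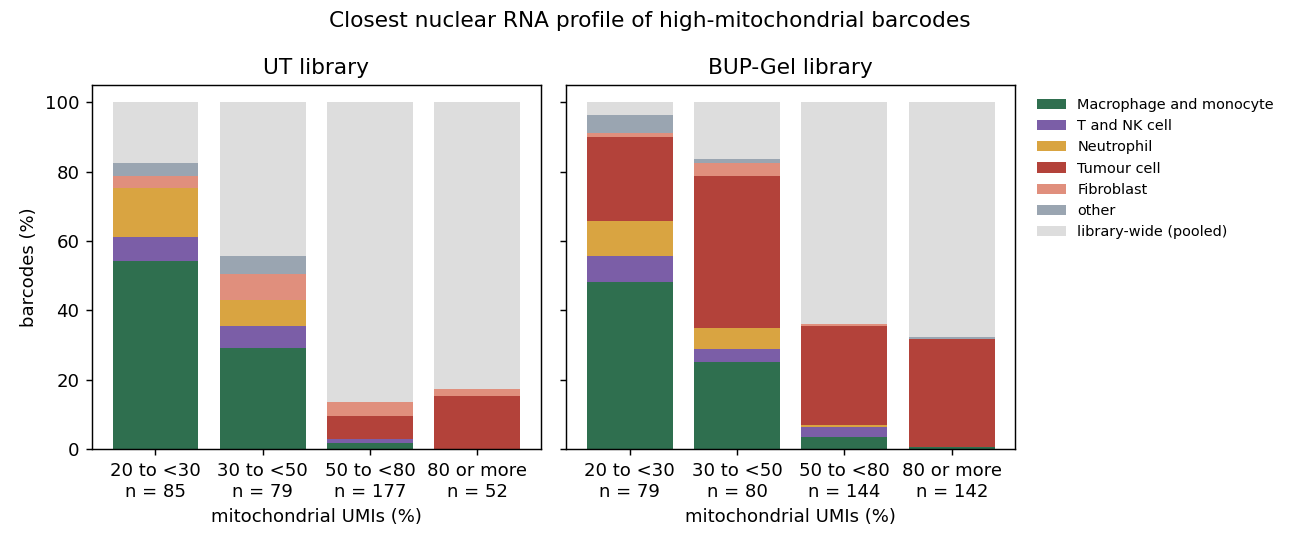
Share of high-mitochondrial barcodes (y axis, %) by the class whose nuclear RNA profile was closest, in 4 ranges of mitochondrial share (x axis, number of barcodes below), for UT (left) and BUP-Gel (right). Macrophage profiles lead at 20 to under 30%, tumor cell profiles are prominent below 50% in BUP-Gel and at 0 there in UT, and the library-wide pooled profile takes most barcodes from 50% upward.

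By profile, most of the barcodes of 20 to under 50% were closest to a named lineage. Macrophage and monocyte profiles took 69 of 164 UT barcodes (42.1%, 34.4 to 50.02) and 58 of 159 BUP-Gel barcodes (36.5%, 29.0 to 44.5). Neutrophil profiles took 18 and 13, T and NK cell profiles 11 and 9, dendritic cell profiles 4 and 3, erythroid profiles 1 and 2, and B cell profiles 2 and 0. The difference between libraries in the macrophage share, -5.60 points, had an interval that included 0 (-16.5 to 5.47). The pooled profile was closest for 50 of the UT barcodes (30.5%) and 16 of the BUP-Gel barcodes (10.1%) of this range, a difference of -20.4 points (-29.2 to -11.4). With the pooled candidate, the smaller macrophage class by markers in BUP-Gel was thus not matched by a difference of that size in profiles within this range. Without it, macrophage profiles took 102 of the 164 UT and 64 of the 159 BUP-Gel barcodes, so this comparison depends on the candidate. The candidate was chosen after seeing the data.

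Tumor cell profiles differed most between the libraries. They took none of the 164 UT barcodes of 20 to under 50% and 54 of the 159 BUP-Gel barcodes (34.0%), a difference of 34.0 points (26.3 to 41.9). Counted with fibroblasts, from which UT tumor cells were less well separated, the numbers were 9 and 58, and the difference 30.99 points (22.2 to 39.5). Kept barcodes with a tumor cell profile also numbered 559 in UT and 2383 in BUP-Gel. Of the 54, 40 had no marker class and 8 were all the barcodes placed by tumor cell markers. Just under the filter, at 10 to under 20%, tumor cell profiles were found in 4 UT and 53 BUP-Gel barcodes. These numbers hold with the pooled candidate. Without it, tumor cell profiles took 5 UT and 62 BUP-Gel barcodes of 20 to under 50%, and tumor cells with fibroblasts 20 and 67.

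From 50% upward, most barcodes were closest to the pooled profile rather than to a single lineage, more so in UT than in BUP-Gel. The pooled profile was closest for 196 of 229 UT barcodes (85.6%) and 188 of 286 BUP-Gel barcodes (65.7%), a difference of -19.9 points (-27.1 to -12.3). Of the 112 UT and 46 BUP-Gel barcodes that carried the macrophage marker label in this range, 98 and 35 had the pooled profile as the closest and 3 and 4 the macrophage profile. Tumor cell profiles were closest for 20 (8.73%) and 85 (29.7%). The median depth of the pooled-profile barcodes was 251.5 and 180 nuclear-genome UMIs. The RNA of empty droplets was not analysed here, so a share of free RNA in these barcodes was not tested.

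The share of each lineage that fell at 20 to under 50% was small throughout. Macrophage and monocyte profiles had 1.97% (1.54 to 2.49) of their barcodes there in UT and 2.82% (2.15 to 3.63) in BUP-Gel. T and NK cell profiles had 0.960% (0.480 to 1.71) and 0.697% (0.319 to 1.32), lower than macrophages in both libraries, with intervals that overlapped in UT and did not in BUP-Gel. Neutrophil profiles had 2.51% (1.497 to 3.94) and 2.66% (1.42 to 4.503), with intervals that overlapped those of macrophages in both libraries. Tumor cell profiles had 0 of 579 in UT, which allows a share of up to 0.635%, and 2.14% (1.61 to 2.78) in BUP-Gel. Tumor cells and fibroblasts together had 0.751% (0.344 to 1.42) and 2.23% (1.70 to 2.87). Without the pooled candidate, tumor cell profiles had 0.791% (0.257 to 1.84) in UT and 2.27% (1.74 to 2.90) in BUP-Gel. Tumor cells and fibroblasts together then had 1.47% (0.903 to 2.27) and 2.36% (1.83 to 2.99). In both cases the intervals of the libraries overlapped, so the difference depends on this candidate.

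**Figure D3:**
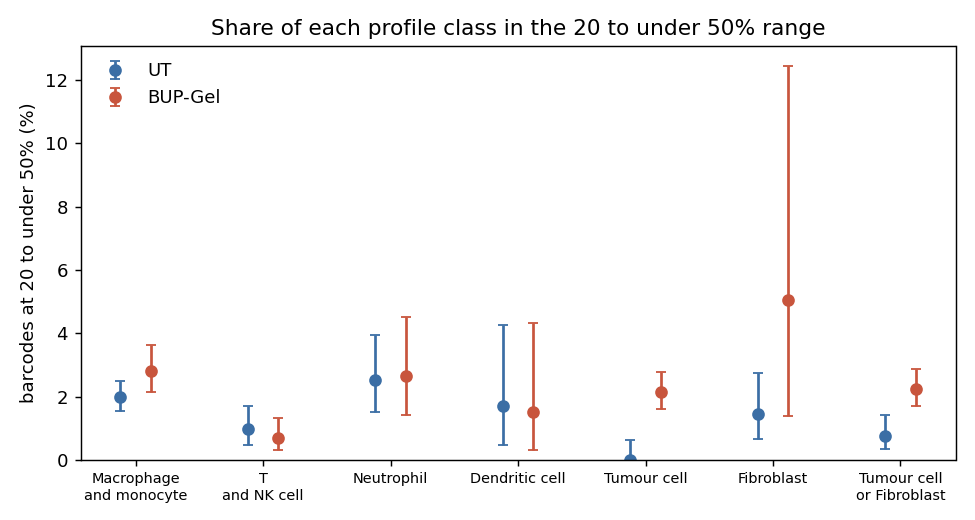
Share of each profile class found at 20 to under 50% mitochondrial UMIs (y axis, % of all barcodes of the class) in UT and BUP-Gel, with exact 95% intervals. With the pooled profile as a candidate, the libraries overlap for macrophages, T and NK cells, neutrophils and dendritic cells and differ for tumor cells (0 against 2.14%). Without it (not shown), the tumor cell shares are 0.791% and 2.27%, with intervals that overlap.

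Nuclear-encoded RNA was compared gene by gene between high-mitochondrial and kept barcodes of the same library, as the log2 ratio of CPM. A gene is counted as higher or lower when it was past 2-fold in the same direction in both libraries, which are not replicates. Over all high-mitochondrial barcodes, 1773 genes were compared, of which 123 (6.94%) were higher and 72 (4.06%) lower. The median log2 ratio of all genes compared was -0.09 in UT and -0.23 in BUP-Gel. At 20 to under 50%, 253 of 1854 (13.6%) were higher and 156 (8.41%) lower, and at 50% or more 36 of 1523 (2.36%) were higher and 118 (7.75%) lower, with a median log2 ratio of -0.16 and -0.30.

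Of the 10 genes with the highest ratios, Cmss1 was found in nearly all barcodes. It had 17771 CPM in UT and 16793 CPM in BUP-Gel high-mitochondrial barcodes against 2566 and 1921 CPM in kept ones, log2 ratios of 2.79 (2.75 to 2.83) and 3.13 (3.09 to 3.17). A UMI of Cmss1 was present in 392 of 393 and 434 of 445 barcodes. Camk1d, which encodes a calcium/calmodulin-dependent kinase, had log2 ratios of 3.45 and 3.47 and was found in 288 and 322 barcodes. Lars2, the mitochondrial leucyl-tRNA synthetase encoded in the nucleus, had 2.85 and 2.76, and Il31ra, a subunit of the interleukin-31 receptor, 3.40 and 2.98.

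Gphn, for the synaptic scaffold protein gephyrin, had log2 ratios of 2.80 and 2.72, and Il1rapl1, of the interleukin-1 receptor family, 2.91 and 3.08. The long non-coding genes Gm19951, Gm48099 and Gm47283 had 3.53 and 4.35, 3.40 and 4.13, and 2.70 and 3.30. Taco1, which promotes translation of mitochondrial cytochrome c oxidase subunit I, had the largest ratios of the 10 (4.30, 3.85 to 4.72, in UT and 6.36, 6.13 to 6.59, in BUP-Gel). It was found in fewer barcodes, 21 in UT and 71 in BUP-Gel, and stood at 167 and 699 CPM against 8.45 and 8.51 CPM.

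**Figure D4:**
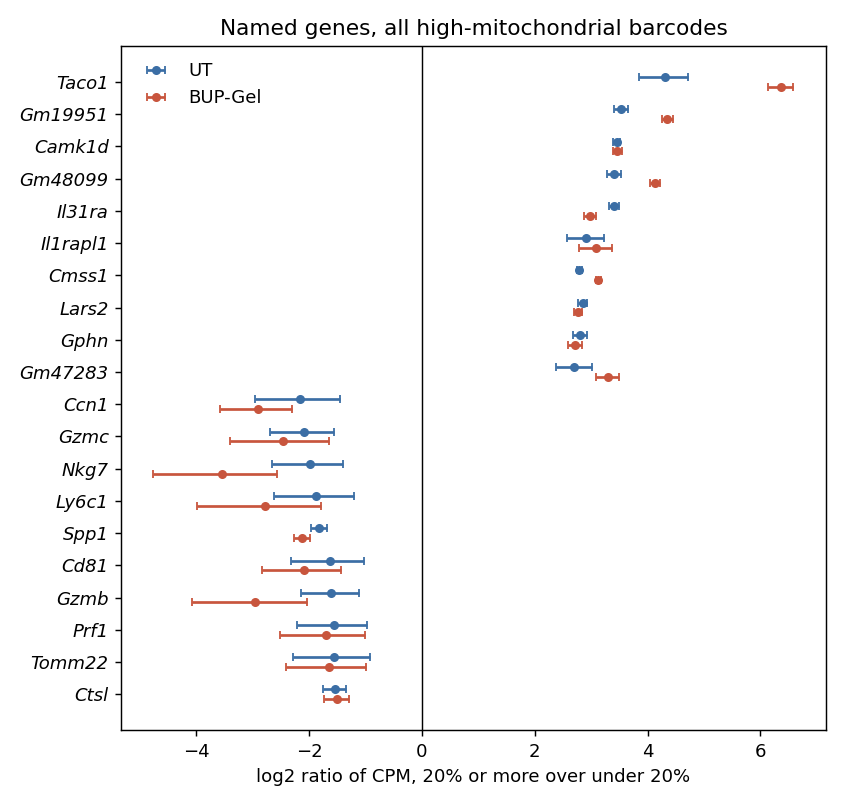
Log2 ratio of CPM of nuclear-genome UMIs (x axis), all high-mitochondrial over all kept barcodes, for the 10 highest and 10 lowest genes by the ratio nearer to 0, with exact 95% intervals for UT and BUP-Gel. The 10 highest lie between 2.70 and 6.36, and the 10 lowest between -3.55 and -1.51.

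Several of these genes share sequence, which limits what their counts mean. Of the 10 genes and Zfpm2, which led among macrophage-marker barcodes, 6 carried stretches almost identical to a stretch of another, mostly within introns. The longest stretch of each of 3 pairs is shown, because reads from such stretches can be counted for either gene. They are given 5' to 3' in the direction of transcription on GRCm39, in lower case, with capitals at the positions where the 2 copies differ. Gphn (chr12:78397712-78397947, plus strand, intron) and Lars2 (chr9:123290865-123291100, plus strand, exon) share 236 bases with 4 differing positions, an identity of 98.3%, and the stretch has 4 copies in the genome.
Gphn: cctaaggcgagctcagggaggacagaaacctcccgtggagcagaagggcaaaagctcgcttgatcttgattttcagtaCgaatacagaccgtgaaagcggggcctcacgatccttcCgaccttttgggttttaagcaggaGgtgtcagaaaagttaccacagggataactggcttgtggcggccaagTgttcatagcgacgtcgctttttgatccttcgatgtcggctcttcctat
Lars2: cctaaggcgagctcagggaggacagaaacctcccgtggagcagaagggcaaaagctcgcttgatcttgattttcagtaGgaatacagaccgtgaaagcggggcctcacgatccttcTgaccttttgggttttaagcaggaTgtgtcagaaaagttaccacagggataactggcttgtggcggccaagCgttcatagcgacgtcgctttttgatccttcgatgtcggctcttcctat
Camk1d (chr2:5383851-5384021, minus strand, intron) and Il31ra (chr13:112714717-112714887, minus strand, intron) share 171 bases with 3 differing positions (98.2%), a stretch with 21 genome copies that lie in 14 genes.
Camk1d: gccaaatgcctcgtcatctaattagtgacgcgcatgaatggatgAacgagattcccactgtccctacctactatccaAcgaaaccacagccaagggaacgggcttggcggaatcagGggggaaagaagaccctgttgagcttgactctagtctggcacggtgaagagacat
Il31ra: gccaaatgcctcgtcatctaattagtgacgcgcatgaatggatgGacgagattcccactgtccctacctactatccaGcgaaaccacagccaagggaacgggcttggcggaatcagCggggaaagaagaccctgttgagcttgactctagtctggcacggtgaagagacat
Cmss1 (chr16:57211494-57211653, minus strand, intron) and Gm19951 (chr12:99611707-99611866, plus strand, intron) share 160 bases with 3 differing positions (98.1%), with 18 genome copies in 11 genes.
Cmss1: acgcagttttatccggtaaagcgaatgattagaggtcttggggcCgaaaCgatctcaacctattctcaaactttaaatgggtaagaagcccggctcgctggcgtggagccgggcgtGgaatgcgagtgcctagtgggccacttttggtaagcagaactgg
Gm19951: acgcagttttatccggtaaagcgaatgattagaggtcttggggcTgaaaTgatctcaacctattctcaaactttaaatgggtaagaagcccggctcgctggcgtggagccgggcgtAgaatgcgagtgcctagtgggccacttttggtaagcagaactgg

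Other genes that hold a copy of these stretches were looked up, whatever their ratio. Of 29 such genes in the count table, 13 had at least 10 UMIs in high-mitochondrial barcodes of both libraries. This minimum lies in the barcodes compared and keeps genes that are high there, so no count of higher genes is given. The 13 include the 6 named genes, which were chosen for their ratios, and 7 others. Tmtc2 had log2 ratios of 3.53 and 2.60, D130009I18Rik 3.95 and 2.98, Jarid2, a partner of the Polycomb repressive complex, 2.91 and 2.47, and Filip1l 2.38 and 1.83. Filip1l overlaps Cmss1 on the opposite strand. Arhgap21 had 0.89 and 1.43, Spata5 1.00 and 1.67, and Mphosph8 0.49 and 0.77. Of these 7, only the Spata5 transcript carries the stretch in the same direction as the named genes. The transcripts of the others carry it in the opposite direction. Whether the reads came from any of these copies, or from another RNA with the same sequence, was not tested. Whether copies in the opposite direction take up such reads was not tested either, so the counts of these genes are uncertain. No shared stretch was found for Taco1, Gm48099, Il1rapl1, Gm47283 and Zfpm2.

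The genes with the lowest ratios included cytotoxic granule genes of T and NK cells. The granzyme genes Gzmc and Gzmb had log2 ratios of -2.10 and -2.46, and -1.61 and -2.96, in UT and BUP-Gel, the perforin gene Prf1 -1.56 and -1.70, and the granule protein gene Nkg7 -1.99 and -3.55. T and NK cell markers as a group were lower as well (above), and the part of lineage make-up in these ratios was not tested. Spp1, the secreted matrix protein osteopontin, stood at 1351 and 1419 CPM against 4806 and 6208 CPM (-1.83 and -2.13). Ctsl, a lysosomal protease, had -1.54 and -1.51, Cd81, a membrane tetraspanin, -1.63 and -2.09, and Ccn1, a secreted matricellular protein, -2.16 and -2.91. Tomm22, a nuclear-encoded receptor of mitochondrial protein import, had -1.56 and -1.66, and the surface antigen gene Ly6c1 -1.87 and -2.78.

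Barcodes of 20 to under 50% held larger shares of RNA that stays in the nucleus than kept barcodes did. The nuclear-retained RNAs made up 1.51% of nuclear-genome UMIs in UT and 2.13% in BUP-Gel, against 0.488% and 0.498% in kept barcodes. The 3 members of this list of 8 with enough counts to compare, Malat1, Neat1 and Pvt1, were all past 2-fold higher in both libraries. Malat1 stood at 13687 and 19671 CPM against 4433 and 4641 CPM (log2 ratios 1.63 and 2.08) and was found in 146 of 164 and 152 of 159 barcodes. Neat1, the scaffold of paraspeckles, had log2 ratios of 1.69 and 1.96, and Pvt1, a long non-coding RNA next to Myc, 1.88 and 2.75, with 40.0% of its UT UMIs in a single barcode.

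Transcripts of long genes had the same direction. Genes spanning 100 kb or more held 17.8% of nuclear-genome UMIs in UT and 24.8% in BUP-Gel at 20 to under 50%, against 8.76% and 8.30% in kept barcodes. Of 433 long genes compared, 179 were past 2-fold higher in both libraries and 2 lower, beside 13.6% and 8.41% of all genes compared. Long genes can enter this comparison through high values in these barcodes alone, so the counts are a description. The shares above take in all long genes. Their median log2 ratio was 0.93 and 1.59, beside -0.01 and -0.04 over all genes. Without the 10 highest named genes, 4 of which are long, the share at 20 to under 30% was still 15.8% and 20.6%.

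Over all barcodes of this range, transcripts translated in the cytosol or at the endoplasmic reticulum held smaller shares than in kept barcodes. The part of lineage make-up in these shares was not tested. Ribosomal protein genes, whose short messenger RNAs are among the most abundant of the cytosol, made up 9.24% in UT and 8.36% in BUP-Gel against 14.7% and 19.4% (log2 ratios -0.67 and -1.21), with 3 of 79 compared past 2-fold lower in both, beside 8.41% of all genes compared. Nuclear-encoded subunits of oxidative phosphorylation made up 1.01% and 0.780% against 1.70% and 1.94%, with 11 of 53 lower and none higher, beside the same 8.41% lower and 13.6% higher. The list of 14 abundant cytosolic transcripts made up 4.83% and 3.18% against 6.63% and 6.17%. Of its members Tpt1, which encodes a translationally controlled protein, was past 2-fold in both (-1.09 and -1.40).

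Of 18 secretory and membrane transcripts made at the endoplasmic reticulum, 5 were past 2-fold lower in both libraries and none higher, beside 8.41% and 13.6% of all genes compared. These were Itm2b, Cd63 and Bsg for membrane proteins, Pdia3 for a protein disulfide isomerase and Ssr4 for a subunit of the translocon-associated complex, with log2 ratios from -1.01 to -1.89. The list made up 1.11% and 0.714% of nuclear-genome UMIs against 1.96% and 1.61% in kept barcodes. Of 10 hypoxia and glycolysis genes compared, the glycolytic enzyme genes Eno1 (-1.08 and -1.22) and Pgk1 (-1.38 and -1.05) were lower. Of 6 heat shock genes, Hspd1, the mitochondrial chaperonin, was lower (-1.32 and -1.31). With so few genes compared in each of these lists, the counts beside those shares describe only the genes named. No member of the immediate-early list (17 compared), the integrated stress and unfolded protein list (4), the p53 and apoptosis list (5) or the mitophagy list (5) was past 2-fold in both libraries. The log2 ratio of the summed share was 0.01 and -0.23 for integrated stress, 0.16 and -0.08 for p53 and apoptosis, and -0.29 and -0.56 for mitophagy.

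**Figure D5:**
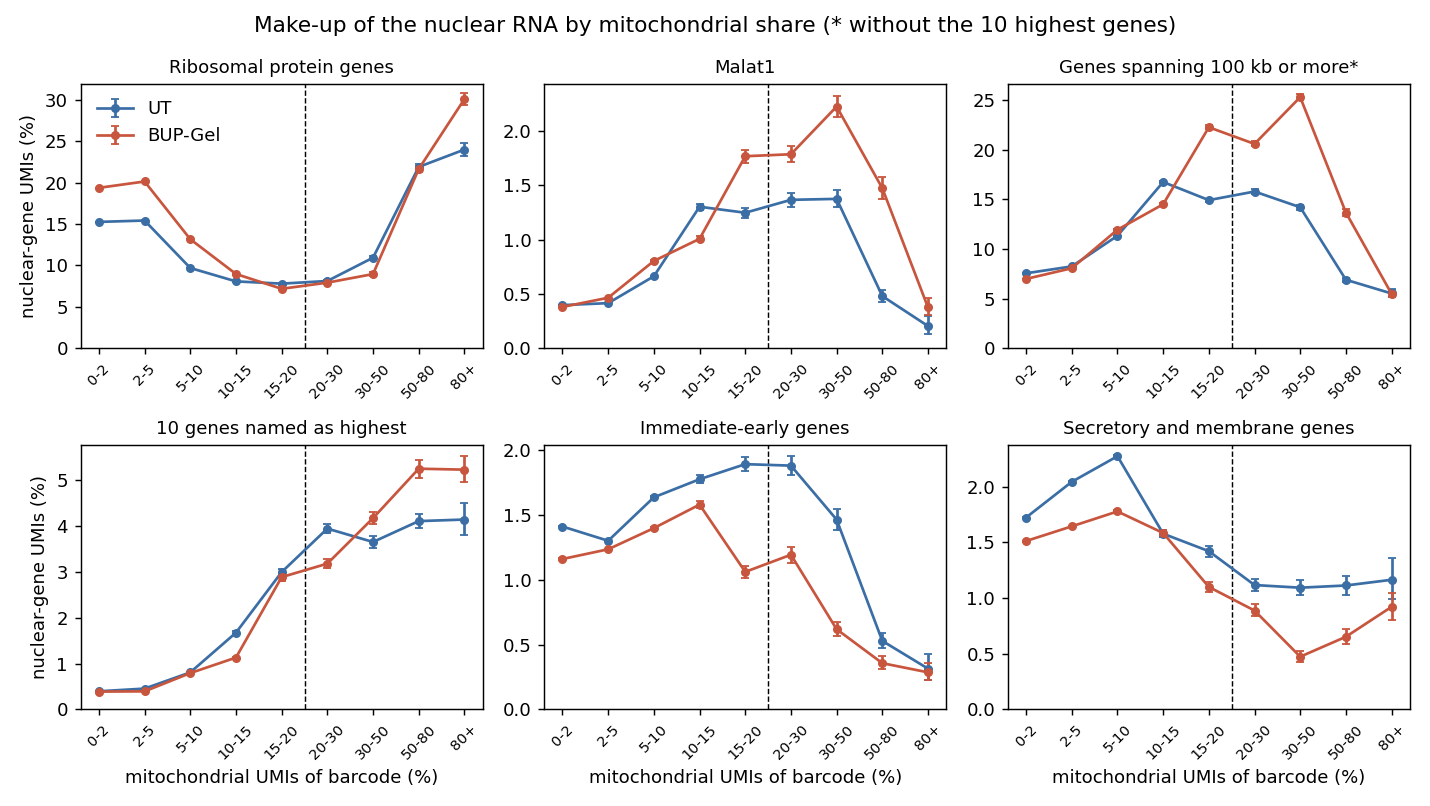
Share of nuclear-genome UMIs (y axes, %) held by 6 groups of transcripts in 9 ranges of mitochondrial share (x axes, %), for UT and BUP-Gel, with exact 95% intervals and a dashed line at the 20% filter. Malat1 and long genes are high from 10 to 50% and low at 80% or more, ribosomal protein genes take the opposite course, and the 10 genes named as highest stay high to the right end. These 10 were chosen for their ratios in the barcodes right of the line, so their level there is a description.

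Barcodes of 50% or more had another make-up. Ribosomal protein genes made up 22.3% in UT and 24.4% in BUP-Gel, above the kept barcodes (log2 ratios 0.60 and 0.33). Of 80 compared, 4 were past 2-fold higher in both libraries and none lower, beside 2.36% and 7.75% of all genes compared. Malat1 was at its kept level in UT (0.429% against 0.443%, log2 ratio -0.05, -0.21 to 0.11) and above it in BUP-Gel (1.12% against 0.464%, 1.27, 1.17 to 1.36). At 80% or more it was at 0.205% and 0.376%, below the shares of 1.37% and 1.78% at 20 to under 30%. Long genes made up 9.43% in UT and 14.1% in BUP-Gel against 8.76% and 8.30% (log2 ratios 0.11 and 0.76), and of 211 compared, 8 were higher and 5 lower in both libraries, beside 2.36% and 7.75% of all genes compared. The cytosolic list made up 6.11% and 4.61% against 6.63% and 6.17% (-0.12 and -0.42), with none of 14 past 2-fold in both. Per barcode, the median ribosomal protein share was 8.49% and 8.24% at 20 to under 50% and 22.5% and 26.2% at 50% or more, against 10.6% and 16.9% in kept barcodes.

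Immediate-early genes, which cells transcribe within minutes of a stimulus and whose messenger RNAs decay fast, were lower at 50% or more. Of 16 compared, 13 were past 2-fold lower in both libraries, beside 7.75% of all genes compared, and none was higher. They were Fos, Jun, Junb and Jund of the AP-1 factors, Atf3, Ier2, Ier3, Btg2, Klf2, Klf4, Klf6, the phosphatase gene Dusp1 and Zfp36, which encodes an RNA-binding protein that promotes decay. Fos had 625 CPM (UT) and 304 CPM (BUP-Gel) against 1956 and 1561 CPM (-1.65 and -2.36), and Zfp36 at 326 and 215 CPM against 1329 and 1009 CPM (-2.03 and -2.23). These values rest on 46 and 24 UMIs of Fos and on 24 and 17 of Zfp36. Of the 18 secretory and membrane genes, Ctsd, Grn, Psap, H2-D1 and Tmed10 were lower, beside the same 7.75% of all genes compared. Psap was at -1.57 and -1.84. In the hypoxia (8 compared), heat shock (6), oxidative phosphorylation (60), integrated stress (3), p53 (3) and mitophagy (5) lists, no member was past 2-fold in both libraries.

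The larger Malat1 share and the smaller cytosolic share at 20 to under 50% were seen within macrophage and T and NK cell profiles as well as over all barcodes, and not within neutrophil profiles. Malat1 and the listed genes were among the genes that assigned the profiles. The shares within profiles, here and below, are therefore a description and do not separate make-up from lineage. Barcodes with a macrophage profile had 1.52% (UT) and 1.66% (BUP-Gel) Malat1 against 0.423% and 0.456% in kept barcodes of that profile, and 3.17% and 2.97% of the cytosolic list against 7.49% and 7.38%. Their ribosomal protein share, 8.50% and 8.13% against 9.23% and 10.9%, was closer to the kept level than over all barcodes. T and NK cell profiles (11 and 9 barcodes) had 1.57% and 1.42% Malat1 against 0.394% and 0.384%, and 2.76% and 2.79% of the cytosolic list against 7.15% and 6.93%.

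Tumor cell profiles in BUP-Gel had the highest nuclear shares of the 4 lineages. Malat1 made up 2.61% in these 54 barcodes against 0.453% in kept ones, long genes without the 10 highest 30.99% against 7.95%, and ribosomal protein genes 8.17% against 24.1%. The BUP-Gel values over all barcodes of this range, which were further from the kept level than those of UT for each of these lists, include these barcodes. Their part in that distance was not tested.

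In neutrophil profiles of this range, the Malat1 and cytosolic shares were near those of kept neutrophils and the ribosomal protein share was above theirs. Malat1 made up 0.794% (UT) and 0.830% (BUP-Gel) against 0.869% and 0.816%, the cytosolic list 8.89% and 8.94% against 8.59% and 8.94%, and ribosomal protein genes 5.32% and 4.46% against 4.29% and 3.86%. The 10 genes named as highest made up 2.84% and 1.35% against 1.19% and 1.35%. Their medians of 2142 and 1583 nuclear-genome UMIs stood beside 1959.5 and 2179 in kept neutrophils. For macrophage profiles the medians were 1077 and 729 against 8360 and 8815.

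Among barcodes with the macrophage marker label, 73 of 1727 genes (4.23%) were past 2-fold higher and 100 (5.79%) lower than in kept macrophages. The macrophage markers that gave the label are included in these counts and left out only of the 5 highest and 5 lowest genes. Malat1 (1.24 and 1.51), Neat1 (1.15 and 1.17) and Pvt1 (1.86 and 2.17) were higher. Lower were the actin genes Actb (-1.06 and -1.39) and Actg1 (-1.13 and -1.45), the lysosomal genes Ctsb, Ctsd, Lamp1 and Psap, and Itm2b, Tmed10 and Zfp36. The 5 highest were Gm47283, Zfpm2, a transcriptional cofactor (3.45 and 3.56), Gm19951, Gm48099 and Il31ra. The 5 lowest were the chemokine genes Ccl24 (-3.11 and -3.44, from 3 and 2 UMIs) and Cxcl3 (-2.84 and -3.53), Ly6c1, the protease inhibitor gene Slpi (-2.43 and -3.23) and Alox5ap of leukotriene synthesis (-2.02 and -2.22).

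Limited to 20 to under 50%, 131 of 1777 genes (7.37%) were higher and 95 (5.35%) lower than in kept macrophages, again with the markers included. The 3 nuclear-retained RNAs were again higher, Actb, Actg1, Itm2b and Cd63 lower, and Hk2, for hexokinase, higher (1.15 and 1.61, from 16 and 11 UMIs). Ribosomal protein genes were not lower in both libraries here, with log2 ratios of the share of 0.22 in UT and -0.15 in BUP-Gel. Over all barcodes with the macrophage marker label these ratios were 0.55 and 0.23. Of the 102 UT and 52 BUP-Gel barcodes with the macrophage marker label in this range, 57 and 37 also had the macrophage profile, and 40 and 9 the pooled one.

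The change of make-up did not begin at the filter. At 10 to under 15%, in barcodes that were kept, Malat1 already made up 1.30% in UT and 1.01% in BUP-Gel, against 0.397% and 0.380% under 2%. Ribosomal protein genes made up 8.08% and 8.97% there, against 15.3% and 19.4% under 2%. The 10 genes named as highest made up 1.67% and 1.13% at 10 to under 15%, 3.94% and 3.18% at 20 to under 30% and 4.14% and 5.23% at 80% or more, against 0.394% and 0.388% under 2%. They were chosen for their ratios in the high-mitochondrial barcodes, so their level above the filter is a description.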

How the data were processed

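Per the labels, counts were made with Cell Ranger 8.0.1 and the mouse genome GRCm39, and Seurat 5.0.1 was used by the authors. The deposited matrices hold UMI counts per gene and barcode, whole numbers without normalization. The sums, intervals and log2 ratios were computed here with numpy 2.4.6, pandas 2.3.3 and scipy 1.17.1 under Python 3.11.15, doublet scores with Scrublet in scanpy 1.11.5 and figures with matplotlib 3.10.9. The UT library was taken as untreated and the other as BUP-Gel from the treatment label. The members and all lists were chosen with earlier results of these data known, and the level at which markers place a barcode was set with marker levels in view.

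Mitochondrial genes were the 13 with symbols starting mt-. CPM are UMIs per 1e+06 nuclear-genome UMIs of a sum of barcodes. Genes were compared when their mean over the 4 sums was at least 100 CPM, and 3 counts were allowed for a count of 0. A gene below that level in kept barcodes can enter through high values in members, as Taco1, Pvt1, Zfpm2 and Hk2 did. Genes are named when their ratio had the same sign in both libraries, ordered by the ratio nearer to 0: the 10 highest and lowest over all members, the 5 highest and lowest in a marker class with at least 20 members per library (markers left out), and members past 2-fold of lists of 20 or fewer genes. A marker class needed 3 UMIs of 2 markers, 5% of the level of typical cells of the class and 2 times the next class. Marker lists were used for 10 lineages, among them mast and endothelial cells. Profiles were summed over kept barcodes of a marker class with at least 20 barcodes, with 0.5 added to each count. The pooled profile and the split at 50% were chosen after seeing the data. Of 33696 listed genes, 33185 were matched by identifier to the GRCm39 annotation. Shared stretches of at least 80 bases were found from 31-base words and kept with at most 25 genome copies at 85% identity or more. Intervals are exact binomial (Clopper-Pearson) for shares and exact Poisson for sums, ratios are conditional on the summed counts, and differences of shares combine the limits of both. The comparison of all members was tested on simulated data with 1568 genes, 161 of them changed and compared. The direction was right for 100% of these, 98.1% passed 2-fold in both libraries and the interval, checked in UT only, held 96.1% of the true ratios. The simulated counts carried counting error only, and the changes were set past 2-fold. These values therefore check the computation and do not cover differences between barcodes or lineages.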

Additional observations from a re-analysis of the deposited data

Results flagged for a closer look

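Immediate-early genes at 20 to under 50% moved in opposite directions in the libraries, with a log2 ratio of their summed share over kept barcodes of 0.32 in UT and -0.36 in BUP-Gel. The difference was not tested. Within macrophage profiles the share was 1.83% and 1.46% against 1.82% and 1.71% in kept barcodes, and within neutrophil profiles 3.66% and 3.16% against 4.64% and 3.60%. In the 54 BUP-Gel barcodes with a tumor cell profile it was 0.368% against 1.04%.

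Nuclear-encoded oxidative phosphorylation genes at 50% or more had log2 ratios of 0.11 in UT and -0.23 in BUP-Gel, beside medians of -0.16 and -0.30 over all genes compared. This difference was not tested either.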

How the results depend on the processing

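The share of barcodes removed was 9.45% (UT) and 9.68% (BUP-Gel) with a threshold of 10%, 6.58% and 7.35% with 15%, 4.53% and 5.53% with 25%, 4.08% and 5.07% with 30%, 3.03% and 3.96% with 50%, and 3.33% and 3.46% over barcodes of at least 1000 UMIs. BUP-Gel was the higher in each of these. The macrophage and monocyte share of the members was 39.9% (UT) and 13.03% (BUP-Gel) with 5 marker UMIs and 18.3% and 14.4% by profile with the pooled candidate, and 42.5% by profile without it in UT. Without it in BUP-Gel, 95 of the 445 members had a macrophage and monocyte profile. The share of that class at or above the threshold was 7.71% and 6.78% with 15%, 4.44% and 3.82% with 30%, 4.17% and 2.86% thinned to 300 nuclear-genome UMIs, 4.42% and 3.15% with 5 marker UMIs and 2.06% and 3.11% with the pooled candidate, and 4.40% and 4.42% by profile without it. The median depth ratio of members to kept barcodes was 0.0487 and 0.0300 for UMIs and 0.104 and 0.0694 for genes with a UMI.

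Genes higher in both libraries numbered 35 by the mean over barcodes, 56 at 30% or more, 62 thinned and 458 at a minimum of 20 CPM, against 123. Genes lower numbered 38 with median-ratio scaling and 273 at 20 CPM, against 72. The ribosomal protein ratio over all members (-0.24 and -0.60) turned positive by the mean over barcodes (0.55 and 0.28) and at 30% or more in UT (0.13, with -0.25 in BUP-Gel), and was -0.26 and -0.69 when scaled without ribosomal protein, Malat1 and hemoglobin UMIs. By the mean each barcode weighs the same, and the barcodes of 50% or more are the more numerous and shallower ones. The Malat1 ratio (1.35 and 1.90) was 0.21 and 0.86 by the mean over barcodes, 1.09 at 30% or more in UT and 1.82 with that scaling in BUP-Gel. In UT the mean over barcodes also turned the oxidative phosphorylation list (0.0598, and 0.0619 among macrophage-marker members, where 30% or more gave 0.0582) and the heat shock list (0.000428). None of the 30 named-gene results changed direction in 179 values. The marker sums were also taken without the barcode that holds most UMIs of a list, an alternative chosen after seeing the data. No paired analysis was possible because each condition has 1 library.

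Depth limits the calls: 100 CPM stand for 7.36 UMIs in UT and 7.91 in BUP-Gel at 50% or more, and for 4.965 UMIs among BUP-Gel macrophage-marker members at 20 to under 50%. Differences between the libraries cannot be told apart from differences between animals or preparations.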
